A study of Mus musculus with 2 samples.

Results

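Cytosolic ribosomal protein genes were followed across the cell types of E11.5 mouse embryos. The members were the gene features whose symbol begins with Rps or Rpl followed by a digit, without the Rps6k kinase genes, and 90 of 21937 gene features met this rule. They comprised 30 canonical genes of the small (40S) subunit, 43 of the large (60S) subunit, 8 paralogues (extra copies of a canonical gene), 7 symbols of pseudogenes and 2 symbols that match the rule without naming a ribosomal protein, Rps19bp1 and Rps23rg1. Together they held 10588802 of the 68972620 gene UMIs (unique molecular identifiers, each marking 1 captured transcript) in 5678 cells. Another 6 genes, such as Rpsa, Rplp0 and Rplp1, encode ribosomal proteins under other symbols and were kept as a companion list.

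The cells came from 4 suspensions of embryos with a DNA barcode linked to EGFP, driven by the ubiquitous CAG promoter and integrated by the piggyBac transposase. F0_8 and F0_9 were each 1 founder embryo, grown from an egg injected with the transgene and therefore possibly mosaic for it. F1_1 held 1 F1 embryo, and F1_mix, a blend of cells from different F1 embryos, is counted as 1 sample. The study lists B6J males and females for the eggs behind the founders, and generation cannot be told apart from other differences between embryos. All suspensions were tagged with CellPlex oligos and captured together in 1 library, so that 2 founder suspensions stood against 2 F1 suspensions, and 0 cell barcodes occurred in more than 1 suspension. The suspensions held 1599, 1318, 1310 and 1451 cells (F0_8, F0_9, F1_1, F1_mix), with medians of 10880, 11904.5, 12996 and 13267 gene UMIs per cell. Both founders were thus shallower than both F1 suspensions. Cell types are those named by the authors, who cut them from the expression of the same cells, so differences between cell types are described without a p-value. Of 16 types, 12 were deep, and 4 (Endodermal Progenitor, Foregut, Hepatocyte and Midgut) were shallow, with a median depth under 1/3 of that of all cells (721.5 to 1674 gene UMIs per cell).

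The labels were checked against the marker lists. Neuroectoderm/Glia held the highest level of neuron markers (81.08 UMIs per 10000, against 64.79 in CNS Neuron) and a neural progenitor level of 0.88 against 12.66 in Neuronal Progenitor, so the label goes against these lists. The Midgut cells also carried 35.32 neuron UMIs per 10000. Foregut had 7.22 neural progenitor UMIs per 10000, next after Neuronal Progenitor, and Hepatocyte had 12.60 mesenchyme UMIs per 10000, as Mesodermal Progenitor did (12.61). Hematoendothelial Progenitor/Endothelium had 33.19 macrophage UMIs per 10000 and 6.09 endothelium UMIs. The names are used below only as labels.

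A ribosome is built from ribosomal RNA and ribosomal proteins, and its 40S subunit reads the message while its 60S subunit joins the amino acids. Their mRNAs belong to the most abundant in growing cells, and most begin with a C followed by a run of pyrimidines (the TOP motif), through which growth signals control their translation. Some canonical genes have paralogues whose proteins can take the place of the parent, and processed retrocopies of ribosomal protein mRNAs are common in mammalian genomes.

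The starts of the genes that the results turn on are shown first, because the retrocopy and the paralogues differ there. Each line gives 10 bases before and 20 bases from the RefSeq start (GRCm38.p6, 5′ to 3′ on the strand of the gene), with the first 5 transcribed bases in capitals.
Rps27 (chr3:90213629-90213658, minus strand): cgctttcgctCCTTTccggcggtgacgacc
Rps27rt (chr9:114982720-114982749, minus strand): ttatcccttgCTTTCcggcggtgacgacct
Rps27l (chr9:66946076-66946105, plus strand): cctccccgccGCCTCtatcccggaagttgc
Rpl22 (chr4:152325716-152325745, plus strand): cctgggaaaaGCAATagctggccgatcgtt
Rpl22l1 (chr3:28805498-28805527, plus strand): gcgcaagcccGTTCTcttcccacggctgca
Rpl12 (chr2:32961702-32961731, plus strand): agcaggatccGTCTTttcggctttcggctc
Rps27rt repeats the start of Rps27 with a shift of 1 base: within the 50 bases from each start the longest run common to both was 38 bases, against 5 bases for Rps27 and Rps27l. A C at the start followed by 4 bases that are each C or T was found in 13 of 76 windows of the 64 members that matched (17.1%), and in 823 of 32851 windows of all genes (2.51%), read on the strand of the gene. For Rpl22 and Rps27l the window shown is 1 of 2, and it lies inside the annotated gene, which begins further upstream. Annotated starts can differ from the ones used in these cells, so a window without the motif says only that these letters are not there.

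With the suspensions pooled, the share of the members among UMIs outside mitochondrial genes differed 2.89-fold between deep types, from 7.82% in Neuroectoderm/Glia to 22.6% in Erythroblast, with a median of 16.8% over the 12 deep types. The Erythroblast share was 22.6, 21.7, 23.9 and 23.8% in F0_8, F0_9, F1_1 and F1_mix, the highest of the deep types in every suspension, although F1_1 held only 7 of these cells. The lowest deep type was Neuroectoderm/Glia in both F1 suspensions (8.36 and 8.45%) and Erythrocyte in both founders (3.37 and 5.43%). Myoblast/Cardiomyocyte (19.5% ± 0.483, SD, n = 4), Epithelial Cell (19.3% ± 0.146) and Hematoendothelial Progenitor/Endothelium (19.0% ± 0.840) followed, and their ranges overlapped. Erythroblasts are red cell precursors. A share cannot tell more member transcripts per cell from fewer transcripts of other genes.

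**Figure D1:**
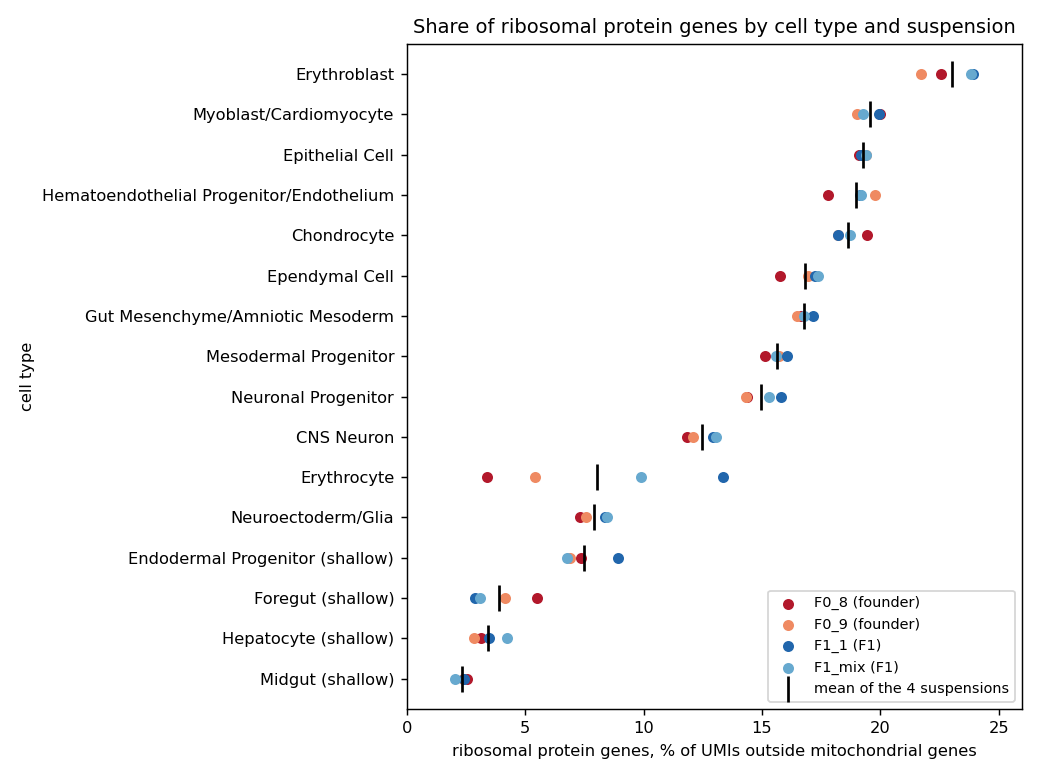
Ribosomal protein genes as a percentage of UMIs outside mitochondrial genes (horizontal axis) in each of 16 cell types (vertical axis), 1 point per suspension and a bar at their mean. With the suspensions pooled, Erythroblast is the highest type at 22.6%, and the 4 shallow types lie between 2.32 and 7.41%.

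Among neural cells the share was 14.9% ± 0.729 (SD, n = 4) in Neuronal Progenitor, 12.5% ± 0.618 in CNS Neuron and 7.92% ± 0.568 in Neuroectoderm/Glia. The values were 14.4, 14.3, 15.8 and 15.3% in Neuronal Progenitor, 11.8, 12.1, 12.9 and 13.1% in CNS Neuron, and 7.32, 7.56, 8.36 and 8.45% in Neuroectoderm/Glia. The 3 types did not overlap and kept this order in each suspension. A median cell held 1933, 1243.5 and 874 member UMIs in these types.

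Of the 11 pairs of neighbours in the order of the deep types, 4 did not overlap between suspensions: CNS Neuron below Neuronal Progenitor, Mesodermal Progenitor below Gut Mesenchyme/Amniotic Mesoderm, Ependymal Cell below Chondrocyte, and Myoblast/Cardiomyocyte below Erythroblast. The Erythrocyte share was 3.37, 5.43, 13.4 and 9.91% over 12, 23, 9 and 16 cells, the widest spread of any type. Globin genes took 81.1, 75.4, 59.6 and 64.2% of the Erythrocyte UMIs in the same suspensions, so the suspensions with more globin had the lower member share. With globin left out of the total as well, the Erythrocyte share was 17.8, 22.1, 33.1 and 27.6%. On that scale Erythroblast was at 25.8% in both founders, 24.1% in F1_1 and 24.4% in F1_mix, so that Erythrocyte took the first place in both F1 suspensions and in the pooled value (26.7 against 25.4%).

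With the suspensions pooled, the shallow types had the lowest shares, at 7.41% in Endodermal Progenitor, 3.74% in Foregut, 3.49% in Hepatocyte and 2.32% in Midgut. In single suspensions this did not always hold. In F0_8 Erythrocyte (3.37%) lay below Foregut (5.50%) and Endodermal Progenitor (7.38%), and in F0_9 Erythrocyte (5.43%) lay below Endodermal Progenitor (6.91%). In F1_1 Endodermal Progenitor (8.91%) lay above Neuroectoderm/Glia (8.36%). A median cell of the shallow types held 18 to 31 member UMIs, and mitochondrial genes made up 17.8 to 50.7% of the gene UMIs there against 0.461 to 2.77% in the deep types. Long genes (over 100 kb) took 31.6 to 48.3% of the UMIs outside mitochondrial genes there and 1.58 to 23.0% in deep types. Across the 10 deep types outside red blood cells the member share and the share of long genes ran in opposite directions (Pearson r = -0.911, Spearman rho = -0.830, a description over types that share 1 library), while over all 12 deep types r was -0.292 and rho -0.517, and the part of this in the low shares was not tested. The members were also used by the authors in choosing cells, since cells with a ribosomal percentage at or under 0.05% were left out, and the lowest deposited ribosomal percentages in the shallow types lay at 0.0501 to 0.0506%. Of 328 barcodes assigned to a suspension but missing from the cell table, 81 were at or under that limit. The deposited ribosomal percentage was taken over gene and oligo counts together, and a median cell of the shallow types held 15928 to 23060 oligo UMIs. The study also left out cells with a mitochondrial ratio of 5% or more. A median cell of the shallow types had 23.0 to 55.9% mitochondrial gene UMIs, above that limit on gene counts alone.

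**Figure D2:**
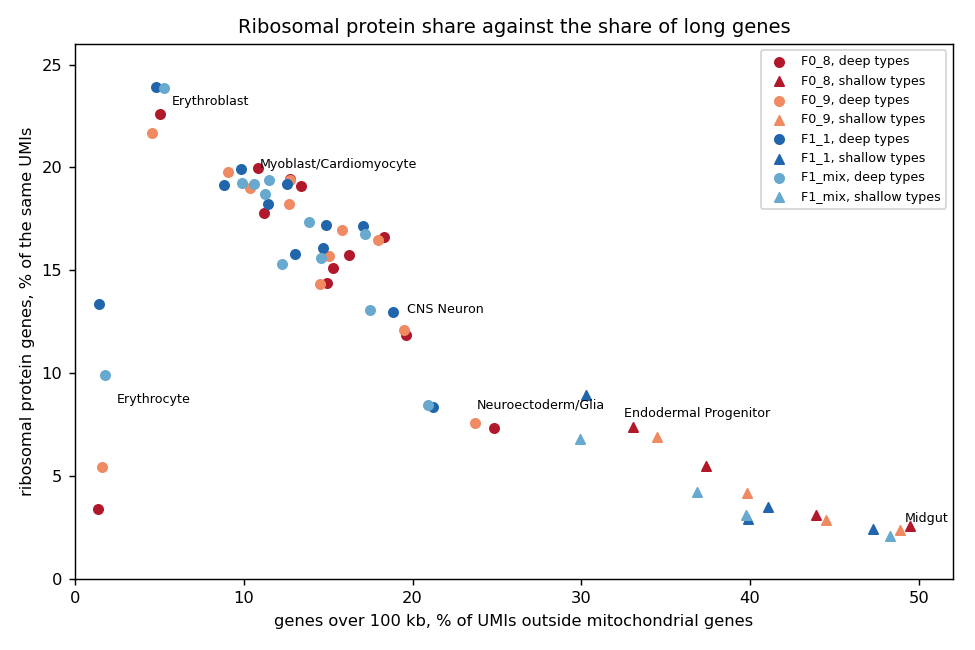
Share of ribosomal protein genes (vertical axis, % of UMIs outside mitochondrial genes) against the share of genes over 100 kb (horizontal axis, % of the same UMIs), 1 point per cell type and suspension, circles for deep and triangles for shallow types. Shares run from Erythroblast (22.6%, long genes 4.88%) to Midgut (2.32%, long genes 48.3%), while Erythrocyte has few long genes and a share of 8.10%.

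Other genes of protein synthesis were summed in the same way. The 6 ribosomal proteins outside the rule summed to 243 UMIs per 10000 in Erythroblast and 57.8 in Neuroectoderm/Glia (r = 0.954 with the member share over the 10 deep types outside red blood cells). The 16 translation factors and other TOP mRNAs, such as Eef1a1 (elongation) and Tpt1, ranged in the deep types from 86.5 per 10000 in Erythrocyte to 267 in Myoblast/Cardiomyocyte (r = 0.937 over the same 10 types). The 20 genes of ribosome biogenesis, such as Ncl and Fbl of the nucleolus, ranged from 4.97 in Erythrocyte to 49.5 in Erythroblast (r = 0.738), and mitochondrial ribosomal proteins gave r = 0.769. The p53 targets, which respond when ribosome assembly is disturbed, showed no steady relation, with r = -0.455 over these 10 types, 0.189 over 12 and a rho of -0.0909 in both. In Neuroectoderm/Glia 12 of 20 biogenesis genes and 5 of the 6 companion genes were at least 1.5-fold lower in all suspensions, as were 17.5% of all genes. Of the 20 biogenesis genes, 9 were lower in CNS Neuron (13.9% of all genes) and 15 in Erythrocyte (77.6%). In Erythroblast 10 were higher and 1 lower (8.19 and 33.3% of all genes), and in Myoblast/Cardiomyocyte 10 were higher (6.95%). Neuronal Progenitor, with a member share below the deep median, had 5 higher and 1 lower (12.1 and 5.59% of all genes) and 30.10 biogenesis UMIs per 10000, next to Myoblast/Cardiomyocyte (34.46) among the 10 types outside red blood cells.

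Single members were then compared with their level per member UMI, so that a change common to all members does not count. For each member and type, the level was set against the median over the other 11 deep types in the same suspension, and a member deviated when it differed at least 1.5-fold in 1 direction in all 4 suspensions. This was a rule of size with no test. Of the 90 members, 84 had at least 200 UMIs in the deep types, and Rpl3l, Rpl39l, Rpl10l, Rpl9-ps1, Rps18-ps6 and Rpl36-ps4 did not. The 84 tested members gave 12 deviating pairs of member and type among 1008 (1.19%), 6 higher and 6 lower, whereas 26.4% of all gene and type pairs met the rule on the same scale. Of the higher pairs, all but Rps2 in Erythrocyte and Rps19bp1 in Neuroectoderm/Glia were of Rps23rg1. That symbol reached 200 UMIs only with its counts in Neuronal Progenitor, where it was highest, so the number of higher pairs rests largely on it. Since the members make up the total on this scale, a change common to them is removed by construction, and the low share is in part fixed by the scale. Per UMI outside mitochondrial genes, 127 pairs met it (19 higher and 108 lower, background 24.7%), of which 75 were lower in Neuroectoderm/Glia, 25 lower in Erythrocyte, 8 lower in CNS Neuron and 15 higher in Erythroblast. Of all genes, 17.5% were lower in Neuroectoderm/Glia on that scale, 77.6% lower in Erythrocyte, 13.9% lower in CNS Neuron and 8.19% higher in Erythroblast, so the members lay above the background in Neuroectoderm/Glia and Erythroblast and below it in Erythrocyte and CNS Neuron. The other 4 higher pairs were Rps23rg1 in Neuronal Progenitor (background 12.1%), Mesodermal Progenitor (10.4%), Ependymal Cell (8.79%) and Epithelial Cell (7.42%).

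Per member UMI, over the 10 deep types outside red blood cells the range of a canonical member, from its lowest to its highest type, had a median of 0.33 on the log2 scale, and 63 of 73 stayed within a 1.5-fold range. Of all 12045 genes tested, 94 did (median range 2.49). Of 399 other genes with at least the UMIs of the lowest canonical member, 10 did (median 1.77). This scale removes a change common to the members by construction, so their narrow range is in part fixed by it. Rpl13 (310496 UMIs) and Rpl13a (19393 UMIs) were the canonical members with the most and the fewest UMIs.

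**Figure D3:**
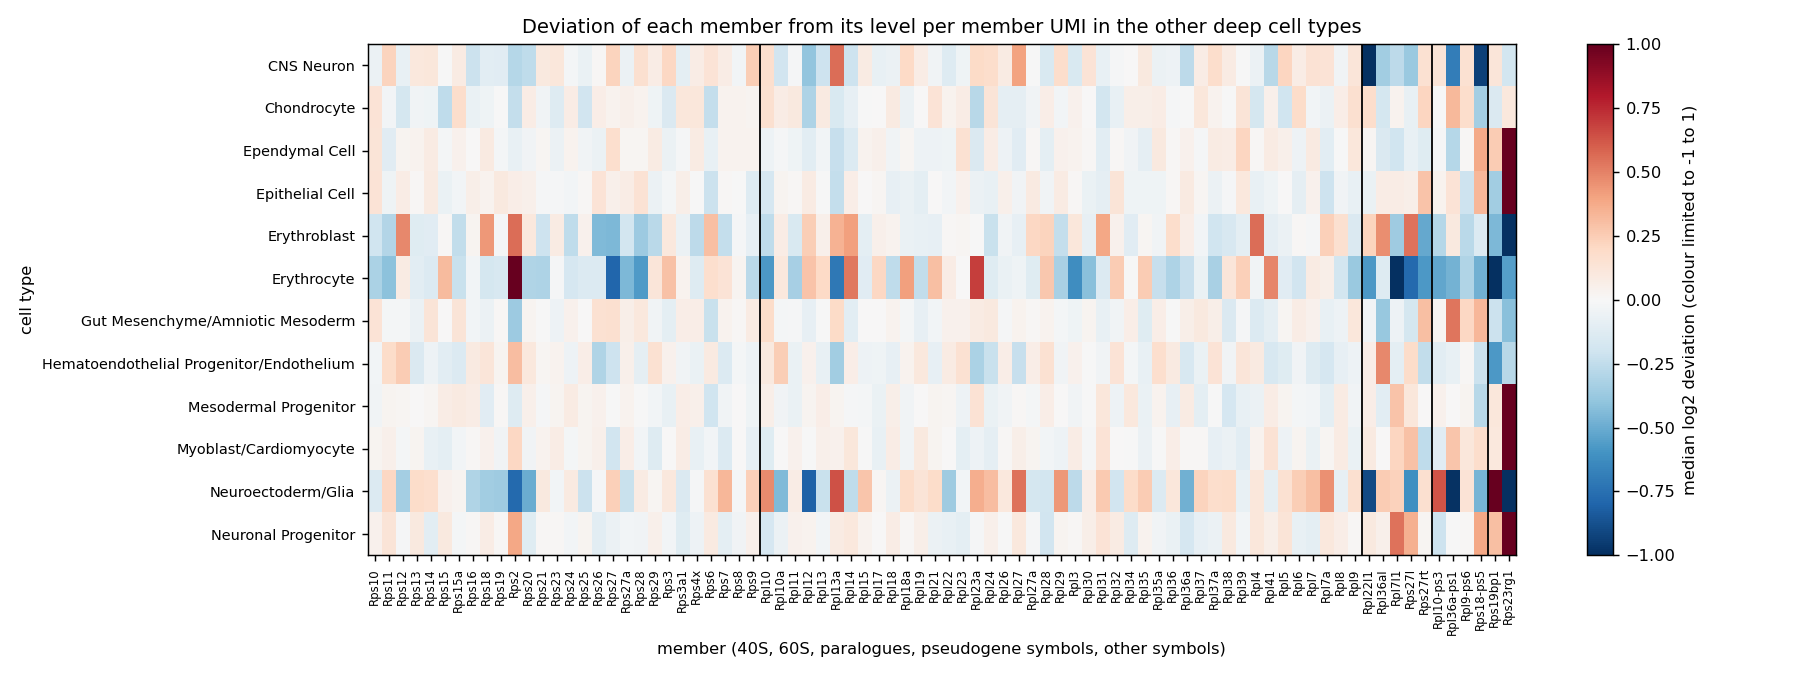
Median log2 deviation of 82 of the 84 tested members (horizontal axis, grouped into 40S, 60S, paralogues, pseudogene symbols and other symbols) from their level per member UMI in the other deep types, for 12 deep types (vertical axis). Most cells are pale (the colour is limited to -1 and 1), and Rps2, Rpl12 and Rpl22l1 are among the members that stand out, with 12 pairs meeting the 1.5-fold rule.

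Of the 40S proteins, Rps2 varied most between types. Rps2, which lies at the mRNA entry of the small subunit, made up 563, 436, 332 and 319 of 10000 member UMIs in Erythrocyte (F0_8, F0_9, F1_1, F1_mix) and was 2.07-fold higher than expected from the other types (background of genes higher there, per member UMI, 2.57%). In Neuroectoderm/Glia Rps2 was 1.71-fold lower (log2 -0.81, -0.74, -0.82 and -0.74 in the same order, background 6.8%). In Erythroblast its median log2 deviation was 0.56, in the same direction as in Erythrocyte, but it did not pass 1.5-fold in every suspension. Rps27 was 1.74-fold lower in Erythrocyte, with 16, 81, 117 and 149 UMIs (background of genes lower 45.4%).

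Of the 60S proteins, Rpl12 deviated in 1 type. Rpl12, a protein of the stalk base where elongation factors bind, made up 67.7, 70.0, 74.6 and 74.7 of 10000 member UMIs in Neuroectoderm/Glia, 1.75-fold lower than expected, whereas it made up 129, 126, 131 and 128 in Neuronal Progenitor. The groups did not overlap. Rpl13a had the second widest range of a canonical member over the 10 deep types outside red blood cells (0.98), with a median log2 deviation of 0.63 in Neuroectoderm/Glia and 0.56 in CNS Neuron, but it did not pass the rule there.

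Among the paralogues, Rpl22l1 met the 1.5-fold rule in both deep types with high neuron markers, while the shallow Midgut, which also carried them, was outside the rule. Rpl22l1 (chr3:28805508-28807424) encodes a second form of Rpl22, an RNA-binding protein of the large subunit. It made up 29.6, 26.1, 24.7 and 24.1 of 10000 member UMIs in CNS Neuron and 28.6, 23.5, 25.1 and 30.8 in Neuroectoderm/Glia, against 54.4, 55.8, 49.9 and 52.7 in Neuronal Progenitor. It was thus 2.01-fold and 1.87-fold lower than expected in CNS Neuron (background 8.83%) and Neuroectoderm/Glia, in all suspensions. As a part of the UMIs of Rpl22l1 and Rpl22 together, it was 25.7% in CNS Neuron (95% Clopper-Pearson interval 24.7 to 26.7, counting error only), 29.8% in Neuroectoderm/Glia (28.4 to 31.2) and 40.5% in Neuronal Progenitor (39.8 to 41.3). Erythrocyte gave 23.9, 21.1, 36.9 and 35.6%, with 22 and 67 Rpl22l1 UMIs in the founders.

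Rps27l, a paralogue of Rps27 that p53 can induce, was highest in Erythroblast. Its part of the UMIs of Rps27l and Rps27 was 47.3, 47.0, 49.8 and 49.4% in Erythroblast, 40.9% in Myoblast/Cardiomyocyte and 39.2% in Neuronal Progenitor. It was 24.5% in CNS Neuron and 21.6% in Neuroectoderm/Glia, where the suspensions lay between 20.3 and 23.1%. Both types thus lay below Neuronal Progenitor for this pair as well, without Rps27l itself passing the 1.5-fold rule (median log2 -0.37 in CNS Neuron and -0.62 in Neuroectoderm/Glia). The p53 target list summed to 3.64 UMIs per 10000 in Erythroblast and 6.02 in Neuroectoderm/Glia, and a relation of Rps27l to p53 was not tested.

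Of the tested paralogues, Rps27l, Rpl36al, Rpl7l1 and Rps27rt did not meet the 1.5-fold rule in any deep type. Rpl36al held 20.7% of the pair with Rpl36a in Neuroectoderm/Glia and 19.99% in Hematoendothelial Progenitor/Endothelium, against 11.1% in Gut Mesenchyme/Amniotic Mesoderm. Rpl7l1 held 7.35% of the pair with Rpl7 in Neuronal Progenitor and 2.35% in Erythrocyte, where it had 40 UMIs. Over the 12 deep types Rpl7l1 had the widest range per member UMI of the 5 tested paralogues (1.55 on the log2 scale, against 1.32 for Rps27l and 1.23 for Rpl22l1), and over the 10 types outside red blood cells Rpl22l1 had it (1.18). Rps27rt, the copy whose start repeats that of Rps27, held 2.90 to 4.03% of the pair in the 12 deep types with the suspensions pooled (2.17 to 5.88% in single suspensions), and reads of near-identical copies can be assigned to either, so these counts are uncertain.

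**Figure D4:**
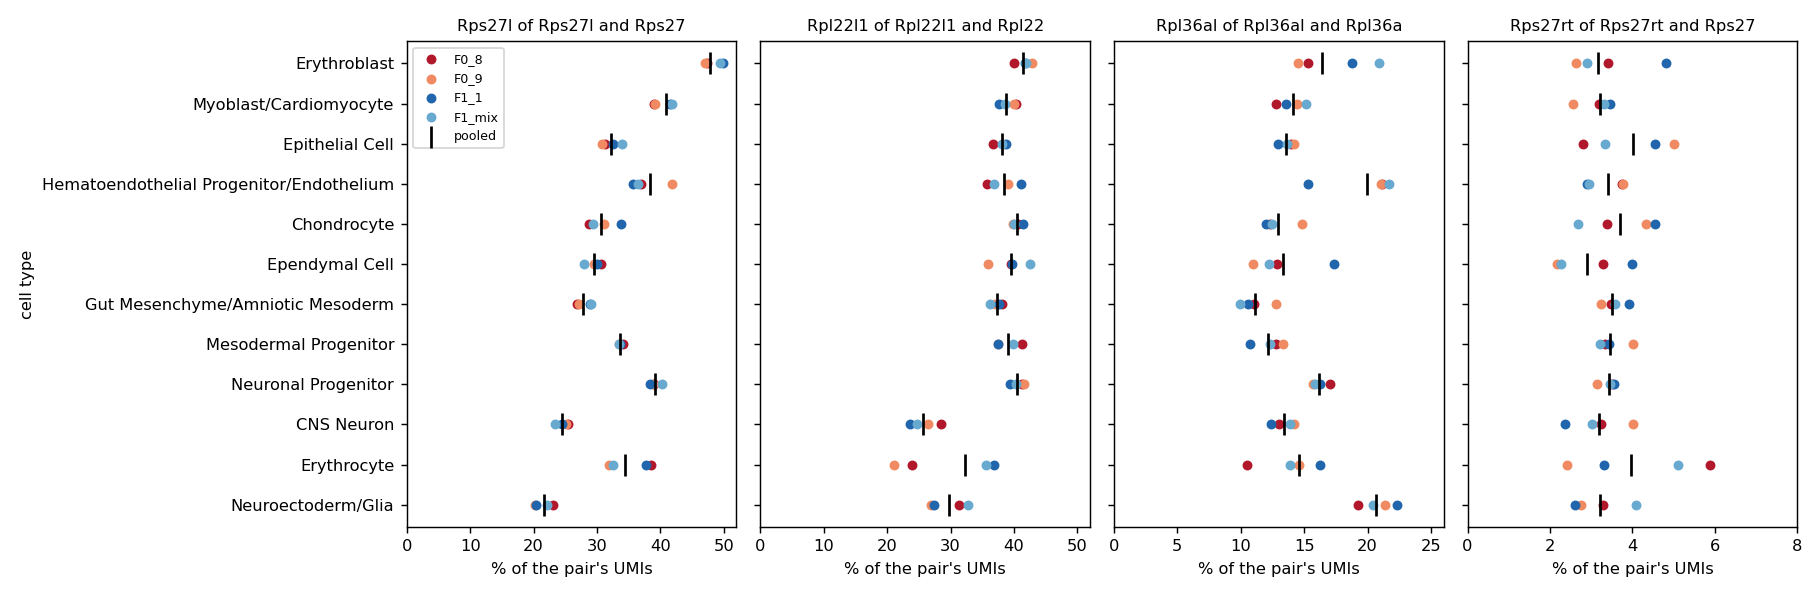
Paralogue UMIs as a percentage of the UMIs of paralogue and parent (horizontal axes) in 12 deep cell types (vertical axis, ordered by member share), 1 point per suspension and a bar for the pooled value. Rpl22l1 and Rps27l are low in CNS Neuron (25.7 and 24.5%), while the pooled value of Rps27rt lies between 2.90 and 4.03% in the deep types.

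Rpl3l, known from skeletal muscle and heart, had 9 UMIs in the deep types and 0 in 644 Myoblast/Cardiomyocyte cells, where its parent Rpl3 had 30758 UMIs. The exact 95% interval allowed a part of up to 0.0120% of the pair there. The muscle markers were highest in this type, but summed to only 4.50 UMIs per 10000 (1.92 to 16.5 between suspensions). Its mesenchyme markers summed to 8.29. The 0 thus holds for the cells under this label and not for differentiated muscle in general. Rpl39l, known from testis, had 49 UMIs, of which 23 were in Erythroblast (0.312% of the pair with Rpl39, interval 0.198 to 0.467%), all from F0_8 and F1_mix. Rpl10l, a testis copy of Rpl10, had 0 UMIs, and Rps4l has no feature in the files. The counts are not corrected for free RNA, and its part in such low levels was not tested.

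Over the 12 deep types, the genes whose log2 level was most like that of Rpl22l1 were Rpl41 (r = 0.985), Rpl13 (0.983), Txn1 (0.979), Suclg2 (0.977) and Rps16 (0.977). Among those most like Rps27l were Rpl8 (0.983), Rpl31 (0.981), Emg1 (0.980) and Tomm7 (0.979). Rpl3l and Rpl39l were below the count minimum and were not compared.

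The 2 symbols that name other proteins are given apart. Rps19bp1, a nucleolar protein that binds Rps19, was 2.05-fold higher per member UMI in Neuroectoderm/Glia (9.40, 7.55, 6.67 and 8.46 of 10000 member UMIs, background 56.3%) and 2.46-fold lower in Erythrocyte, where it had 19 UMIs. Per 10000 UMIs outside mitochondrial genes Rps19bp1 was at 0.639 in Neuroectoderm/Glia and 0.714 in Neuronal Progenitor, so its level per UMI was lower in Neuroectoderm/Glia while its level per member UMI was higher. Rps23rg1 had 209 UMIs in the deep types, 107 of them in Neuronal Progenitor (18, 16, 31 and 42), and it met the rule in Neuronal Progenitor (background 16.3%), Mesodermal Progenitor (12.2%), Ependymal Cell (8.32%) and Epithelial Cell (5.42%) on these few counts.

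The generations were compared in 13 types with at least 20 cells in each suspension, with edgeR's quasi-likelihood test on summed UMIs and Benjamini-Hochberg adjustment over all genes of a type. With 2 suspensions a side, an exact permutation test of 1 value cannot go below p = 0.33. Of 1028 member and type pairs, 23 passed an adjusted p of 0.05 (2.24%), against 0.752% of all gene and type pairs, with 15 higher and 8 lower in founders. All 15 higher pairs were in Foregut (background 1.68%), and the lower ones were in Neuronal Progenitor (5 members, background 0.656%), CNS Neuron (Rps12, background 0.777%), Neuroectoderm/Glia (Rps4x, 1.15%) and Gut Mesenchyme/Amniotic Mesoderm (Rps2, 1.62%).

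**Figure D5:**
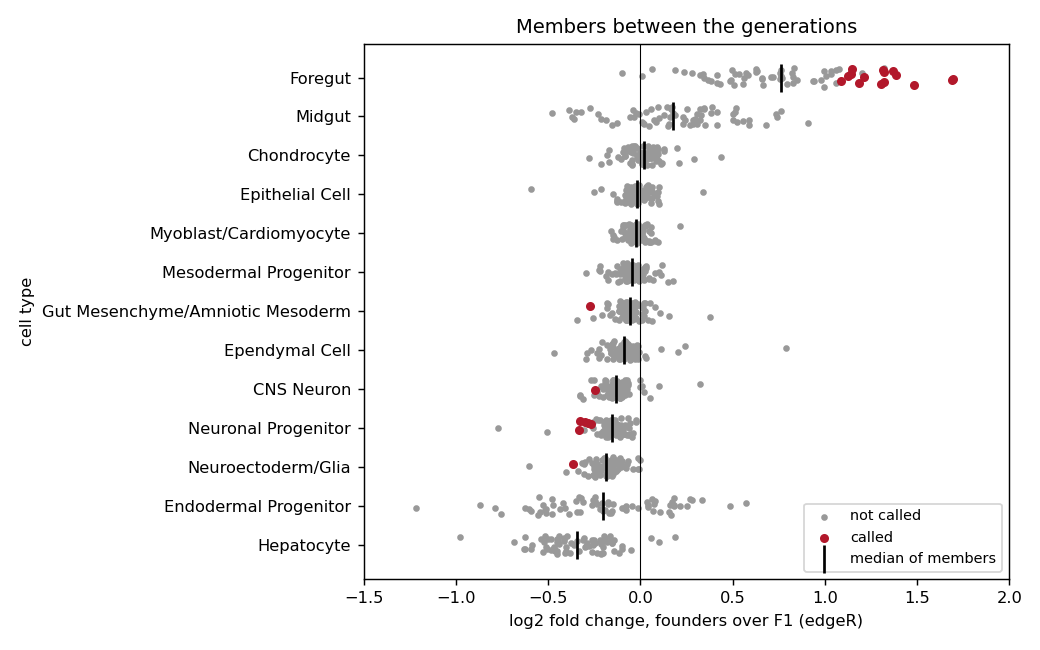
Log2 fold change of each member between founders and F1 (horizontal axis, edgeR) in 13 cell types (vertical axis), grey points not called, red points with an adjusted p under 0.05 and a bar at the median. Foregut members lie to the right of 0 (median 0.76), and those of the 3 neural types to the left (medians -0.13 to -0.19), while Hepatocyte has the lowest median (-0.35).

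In Foregut the member share was 5.50 and 4.17% in the founders and 2.88 and 3.10% in F1. Rps12 was 13.4 and 8.80 per 10000 in founders against 4.16 and 5.48 (log2 1.31 ± 0.302 SE, edgeR adjusted p = 0.0073), and Rpl29 was 7.44 and 4.54 against 1.93 and 2.09 (log2 1.69 ± 0.354, edgeR adjusted p = 0.00212). Rps15a (edgeR adjusted p = 0.0039), Rps20, Rpl12, Rps14 and Rpl36 were higher too, and Rpl22l1 was at 2.98 and 3.20 against 0.71 and 1.30 (log2 1.69 ± 0.469, edgeR adjusted p = 0.0379). These values rest on 1562 to 3695 member UMIs per suspension. Without F0_8, 1 Foregut member was called (median log2 of the members 0.47), and without F0_9, 24 were (0.92). Without F1_1 or F1_mix 0 were called, and by DESeq2 0, at medians of 0.73, 0.76 and 0.66. In the same suspensions the neural progenitor list summed to 5.95 and 5.60 UMIs per 10000 in Foregut founders and 7.41 and 8.87 in F1, with Nes lower in founders (log2 -1.55, edgeR adjusted p = 0.0236). The red blood cell list summed to 8.19, 1.87, 1.42 and 3.001 in F0_8, F0_9, F1_1 and F1_mix, and the mesenchyme list to 1.19, 1.60, 0.71 and 0.52. The 4 macrophage markers were at 0, and the part of other cell types in the result was not tested.

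The members had a median log2 below 0 in 10 of 13 types. All 84 tested members lay below 0 in Neuronal Progenitor (median -0.15), all 81 in Neuroectoderm/Glia (-0.19), 75 of 81 in CNS Neuron (-0.13), 75 of 81 in Ependymal Cell (-0.09) and 74 of 77 in Hepatocyte (-0.35, 0 called). The median over all genes tested lay between -0.0076 and 0.015 in each of the 13 types. Rps2 was 33.2 and 33.7 per 10000 in Neuronal Progenitor founders against 41.7 and 37.7 (log2 -0.29 ± 0.0504 SE, edgeR adjusted p = 0.0477), and it was also lower in Gut Mesenchyme/Amniotic Mesoderm (log2 -0.28, edgeR adjusted p = 0.0151). Rps2 had a log2 below 0 in 11 of 13 types. Rps6, whose protein is phosphorylated downstream of mTOR, was 13.8 and 13.6 against 17.4 and 16.2 in Neuronal Progenitor (edgeR adjusted p = 0.0324), and Rpl4, Rpl6 and Rps3 passed there as well. Without F0_8, 0 of the 8 lower pairs stayed called. Without F0_9, 0 members were called lower in Neuronal Progenitor and Gut Mesenchyme/Amniotic Mesoderm, and without F1_1, without F1_mix and by DESeq2 0 were in Neuroectoderm/Glia. DESeq2 also called 0 in CNS Neuron. The medians of the members moved little in these settings. In Neuronal Progenitor they were -0.156 without F0_8 and -0.148 without F0_9. In Neuroectoderm/Glia they were -0.186 without F1_1, -0.180 without F1_mix and -0.177 by DESeq2. In all types, 37 lower pairs were called without F1_mix, 63 without a filter on low counts and 5 by DESeq2, while the pairs called over all genes went from 746 to 1498, 3154 and 445. In Neuronal Progenitor genes over 100 kb made up 14.9 and 14.5% of the UMIs outside mitochondrial genes in founders and 13.0 and 12.3% in F1. Both founders lay above both F1 suspensions on this measure in each of the 13 types except Foregut. These included types with member medians near 0, such as Chondrocyte (12.8 and 12.7 against 11.4 and 11.2%) and Myoblast/Cardiomyocyte (10.9 and 10.3 against 9.80 and 9.91%). Of the markers of other cell types, edgeR called Stmn2 (neuron) higher in Gut Mesenchyme/Amniotic Mesoderm founders (log2 2.74, adjusted p = 0.00164) and Sox2 (neural progenitor) higher in Neuroectoderm/Glia founders (log2 1.68, adjusted p = 0.0354). The part of long genes, of these markers and of the lower depth of both founder suspensions in the results was not tested. With the library size set to the total of the members, 1 pair remained, Rps2 in Gut Mesenchyme/Amniotic Mesoderm, so the other calls were not made on the scale of the members. None of the 74 companion and 191 biogenesis gene and type pairs passed the edgeR test, while Eef1a1 in CNS Neuron, Tpt1 in Foregut and Npm1 in Neuronal Progenitor, of 198 pairs of translation factors and other TOP mRNAs, did. Of 76 pairs of p53 targets, 1 passed, Cdkn1a, which was higher in CNS Neuron founders (log2 2.30, edgeR adjusted p = 0.0071). Its relation to the members was not tested.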

How the data were processed

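Single cells of E11.5 embryos were captured with a 3′ droplet chemistry. The authors deposited UMI counts made with Cell Ranger (headers name 7.2.0, the methods text an earlier release) on mm10 with EGFP added, and a cell table with the suspension, cell type and ribosomal percent of each cell. That percent was deposited over gene and oligo counts together, and differed from the same share recomputed here by a median of 0.055 points. Counts are not corrected for ambient RNA. Another 17 columns of the table were not used. The authors' doublet removal was kept and no caller was run.

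Counts were summed per cell type and suspension. Deviation was log2 of observed over expected counts, each plus 0.5. Founders and F1 were compared with edgeR 4.0.16 (R 4.3.3), with DESeq2 1.42.0 as an alternative, without a covariate. The fold rule and edgeR were tested on simulated data. Nothing shows that suspensions are independent cultures beyond separate embryos, so p-values measure the spread between these 4 suspensions. Gene lengths, coordinates and starts come from RefSeq (GRCm38.p6); 96.7% of genes had a length. Genes named in the text are the fixed paralogues, the largest deviations, the members called between generations and the symbols of other proteins. Rpl13 and Rpl13a, and examples within lists, were named after their values were seen. The members and lists were chosen with earlier results of these data known. Values of some genes are not reported here, though counts and sums include them. Intervals cover counting error only.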

Additional observations from a re-analysis of the deposited data

Results flagged for a closer look

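Of 80 groups of 4 suspensions, 3 held a suspension far from the others, and chance flags about 1 in 20 such groups. They were the Rpl36al part of the pair with Rpl36a in Chondrocyte (gap over range 0.836, F0_9 high at 14.9%), in Hematoendothelial Progenitor/Endothelium (0.895, F1_1 low at 15.3%) and in Hepatocyte (0.975, F1_1 high at 32.6%).

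The founders' member share was 1.62 times that of F1 in Foregut, with both founders above both F1 suspensions, while in 8 types both founders lay below. Erythroblast was among these 8 (22.6 and 21.7 against 23.9 and 23.8%). With globin left out, both Erythroblast founders lay above F1 instead (25.8 and 25.8 against 24.1 and 24.4%). The difference between the types was not tested.

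Droplets outside the suspensions with 1 to 100 gene UMIs, which no comparison uses, had a member share of 17.5%, and those with 100 to 300 had 7.93%. The pooled share of each shallow type was below both values, but Endodermal Progenitor in F1_1 was at 8.91%.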

How the results depend on the processing

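The median share of the deep types was 16.8%, and it moved beyond the spread between suspensions to 16.3% over all gene UMIs, 17.7% without globin genes and 18.1% with the 6 companion genes; that of the shallow types moved from 3.62 to 2.94% over all gene UMIs. The ratio of the highest to the lowest deep type stayed between 2.81 and 3.41. For shallow types too few cells were under 5% mitochondrial to give a value. The 12 deviating pairs became 2 with a fold of 2 (both Rps23rg1, in Neuronal Progenitor and Ependymal Cell) and 127 per UMI outside mitochondrial genes, and 12 to 16 without any 1 suspension. The 23 pairs called between generations became 67 without a filter on low counts (4 higher, 63 lower), 1 with the total of the members as library size and 5 with DESeq2, and ranged from 1 (without F0_8) to 37 (without F1_mix). The pairs called over all genes were 746, and became 3154, 1203 and 445 in the same order, 511 without F0_8 and 1498 without F1_mix. With 1 suspension left out, the lone sample of a side is assumed to vary like the others. Under the total of the members the median log2 of all Foregut genes was -0.80, against 0.01 otherwise. None of the 23 pairs called between generations changed direction, but medians of the members near 0 did, such as Chondrocyte (0.02 to -0.04 without F0_8) and Myoblast/Cardiomyocyte (-0.02 to 0.02 without F0_9), and that of Foregut went from 0.76 to -0.03 under the total of the members. The median of Endodermal Progenitor, which was further from 0, also turned (-0.20 to 0.01 without F1_1). No paired analysis was possible because the suspensions of the generations share no replicate number. Depth limits the shallow types and the rare paralogues.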
